A study of Mus musculus with 8 samples.

Results

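The 41 genes described here encode the cyclins and E2F factors that take a cell from G1 into S phase and the proteins that copy DNA during S phase. They are a named list, matched to the array by gene name, out of 31732 genes with a usable probe. The list was chosen with earlier results of these data known, so the shares set beside all genes are descriptions only. All 41 had a probe, and 39 were bright enough to test among 19655 genes. Ccne2, a second E-type cyclin, was not well above background on any of the 8 arrays. Cdc6, which helps load the replicative helicase at origins, passed that mark on both day 2 arrays and on no later array, and was not tested.

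The cells were muscle stem cells (satellite cells) from the extensor digitorum longus (a hindlimb muscle) of Dnmt3a-KO mice and of wild-type (WT) littermates, all labelled as male and 8 weeks old. Dnmt3a encodes an enzyme that places new methyl groups on DNA. The cells were expanded for 5 days in growth medium, replated at equal cell number and kept in differentiation medium for 2, 4, 5 or 6 days, with 1 one-colour Agilent array per genotype and day. That gives 4 Dnmt3a-KO arrays and 4 WT arrays, and no genotype and day was repeated. The allele and the tissue in which Dnmt3a was removed are not given in the sources used here. Nor are the number of mice behind each array and whether the days share a culture. The p-values measure the spread of these arrays about each fit, which may be technical. For the genotype test that is the spread of the 4 daily differences, and a difference that changes with day enters it.

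D-type cyclins activate the kinases that relieve E2F factors of their repressor, and E2F factors then switch on the E-type cyclins and most of the replication genes. Origins are licensed when CDC6 and CDT1 load the ring of MCM subunits, which GINS and MCM10 help turn into a moving helicase. Polymerases, the clamp PCNA and its loader copy the strands, while other enzymes supply nucleotides and repack the new DNA. Myoblasts that differentiate leave the cell cycle, and transcripts of these genes are known to fall as they do.

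The share of spots well above background was 61.6% to 67.4% per array, and an array's 75th percentile of intensity was 719.5 to 1528.1 units. Values below are scaled signals, in which 1 is the array's own 75th percentile, and differences are on the log2 scale. Repeat spots of a probe varied within an array by 0.059 to 0.16 (median SD, log2), which says nothing of the spread between cultures. Dnmt3a itself was dimmer in Dnmt3a-KO on every day, at 46.2%, 19.8%, 21.7% and 19.1% of WT on days 2, 4, 5 and 6 (mean log2 difference -2.01 ± 0.60, SD over 4 days; limma adjusted p = 0.10), and whether its probe lies in the deleted part is not known here. Both day 2 arrays were on their own slide, with another scanner model and software version. Against the label of male mice, Xist was well above background on the 6 later arrays and neither day 2 array, and 4 Y-linked genes passed that mark on each day 2 array and on none of the later ones. Myod1 and Myog, the factors that define myogenic cells, were well above background on all 8 arrays, and Myf5 on none.

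Promoter sequences are shown because E2F factors are members of the list as well as regulators of many of its genes. RefSeq promoter windows (GRCm38.p6, 250 bases before to 50 after a gene's start) were found for 32 of the 41 genes. The 4 motifs TTTCCCGC, TTTCGCGC, TTTGCCGC and TTTGGCGC, which E2F factors are known to bind, were searched on both strands, and overlapping matches were kept. At least 1 motif lay in the window of 11 of 32 genes (34.4%), against 2.6% of 27025 genes with a window. Among the genes with the lowest Dnmt3a-KO signal relative to WT, those with a motif were E2f7, Mcm3 and Mcm5, and Mcm7 is shown beside them as a gene of the same helicase whose mean difference was -0.03. Capitals mark the motif in either orientation, and each window reads 5′ to 3′ along the gene.
E2f7 (chr10:110745189-110745488, plus strand): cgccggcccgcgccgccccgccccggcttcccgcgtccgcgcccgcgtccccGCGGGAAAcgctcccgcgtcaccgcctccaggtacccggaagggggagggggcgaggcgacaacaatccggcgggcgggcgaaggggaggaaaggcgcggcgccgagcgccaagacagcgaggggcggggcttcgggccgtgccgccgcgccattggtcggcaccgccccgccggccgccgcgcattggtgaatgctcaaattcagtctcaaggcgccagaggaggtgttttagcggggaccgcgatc
Mcm3 (chr1:20820263-20820562, minus strand): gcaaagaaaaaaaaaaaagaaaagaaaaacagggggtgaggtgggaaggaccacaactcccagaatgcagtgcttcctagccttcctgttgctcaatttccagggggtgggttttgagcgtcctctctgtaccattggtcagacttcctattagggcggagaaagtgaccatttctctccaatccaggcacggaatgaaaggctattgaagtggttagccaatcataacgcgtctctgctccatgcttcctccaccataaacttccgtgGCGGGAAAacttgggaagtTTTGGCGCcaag
Mcm5 (chr8:75109259-75109558, plus strand): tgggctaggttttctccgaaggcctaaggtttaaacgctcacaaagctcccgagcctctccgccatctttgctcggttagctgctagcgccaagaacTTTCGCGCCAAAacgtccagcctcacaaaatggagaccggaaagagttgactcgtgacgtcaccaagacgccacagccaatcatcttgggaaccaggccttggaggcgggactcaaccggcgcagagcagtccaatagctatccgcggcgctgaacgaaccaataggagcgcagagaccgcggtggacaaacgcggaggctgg
Mcm7 (chr5:138171834-138172133, minus strand): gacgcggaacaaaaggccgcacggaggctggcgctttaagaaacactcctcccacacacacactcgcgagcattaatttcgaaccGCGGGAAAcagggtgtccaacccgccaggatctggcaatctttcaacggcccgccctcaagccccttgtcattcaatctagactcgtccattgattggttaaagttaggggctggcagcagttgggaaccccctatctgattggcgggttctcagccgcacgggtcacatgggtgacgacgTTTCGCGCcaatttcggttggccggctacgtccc
The window of Mcm3 held 2 matches after the start, and in Mcm5 a pair of matches overlapped. The 10 tested genes with a motif had a median genotype difference of -0.42, and the 21 genes whose window held none had -0.27. A match describes letters in the window only and is not evidence of binding.

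The main comparison asked how the signals of these genes differed between Dnmt3a-KO and WT cells. In Dnmt3a-KO cells 32 of the 39 tested genes had a lower mean signal over the 4 days (82.1%, against 53.0% of all genes), with a median difference of -0.36, against -0.01 over all genes. E2f7, Tk1, Mcm3, Chaf1b, Mcm10, Ccne1, E2f1 and Mcm5 were lowest, at -0.60 to -0.88, which is 1.51-fold to 1.84-fold lower. For E2f7 a second probe gave -0.15. Only 7 genes had a mean above 0, and none of these exceeded 0.13. By the limma test with day as a block 0 of 39 genes passed the adjusted threshold of 0.05 in either direction (background 0.00509% of 19655 genes lower and 0.00509% higher), and the smallest adjusted p, that of Mcm10, was 0.18. At unadjusted p under 0.05, 19 of 39 genes were lower (48.7%; background 6.71%) and 0 were higher (background 6.17%). That count was 8 without day 2 (background 7.38%), 7 without day 4 (3.79%), 20 without day 5 (6.25%) and 9 without day 6 (4.62%). It was 0 without day as a block (background 0.997%) and 9 under normexp background correction (background 39.1%). In each of the 39 genes the range of the Dnmt3a-KO arrays overlapped that of the WT arrays, as in nearly all genes (background without overlap 0.773% lower and 0.941% higher). With normexp background correction the median of all genes moved to -0.36 and that of the 39 genes to -0.18, so relative to all genes the direction turned. There 24 genes had a mean below 0, a count with no share of all genes beside it. Of the 39 genes, 12 changed sign, namely Ccnd1, Ccnd2, Ccnd3, E2f2, Mcm6, Mcm7, Pcna, Rfc3, Rfc4, Rpa2, Fen1 and Tipin. Relative to all genes under that correction, the role groups of the cyclins, E2F factors and polymerases lay above 0 and those of the MCM helicase (-0.18), licensing (-0.44), nucleotide supply (-0.07) and chromatin factors (-0.27) below it. In RNA of whole cultures, fewer cells of a type and less RNA per cell cannot be told apart.

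**Figure D1:**
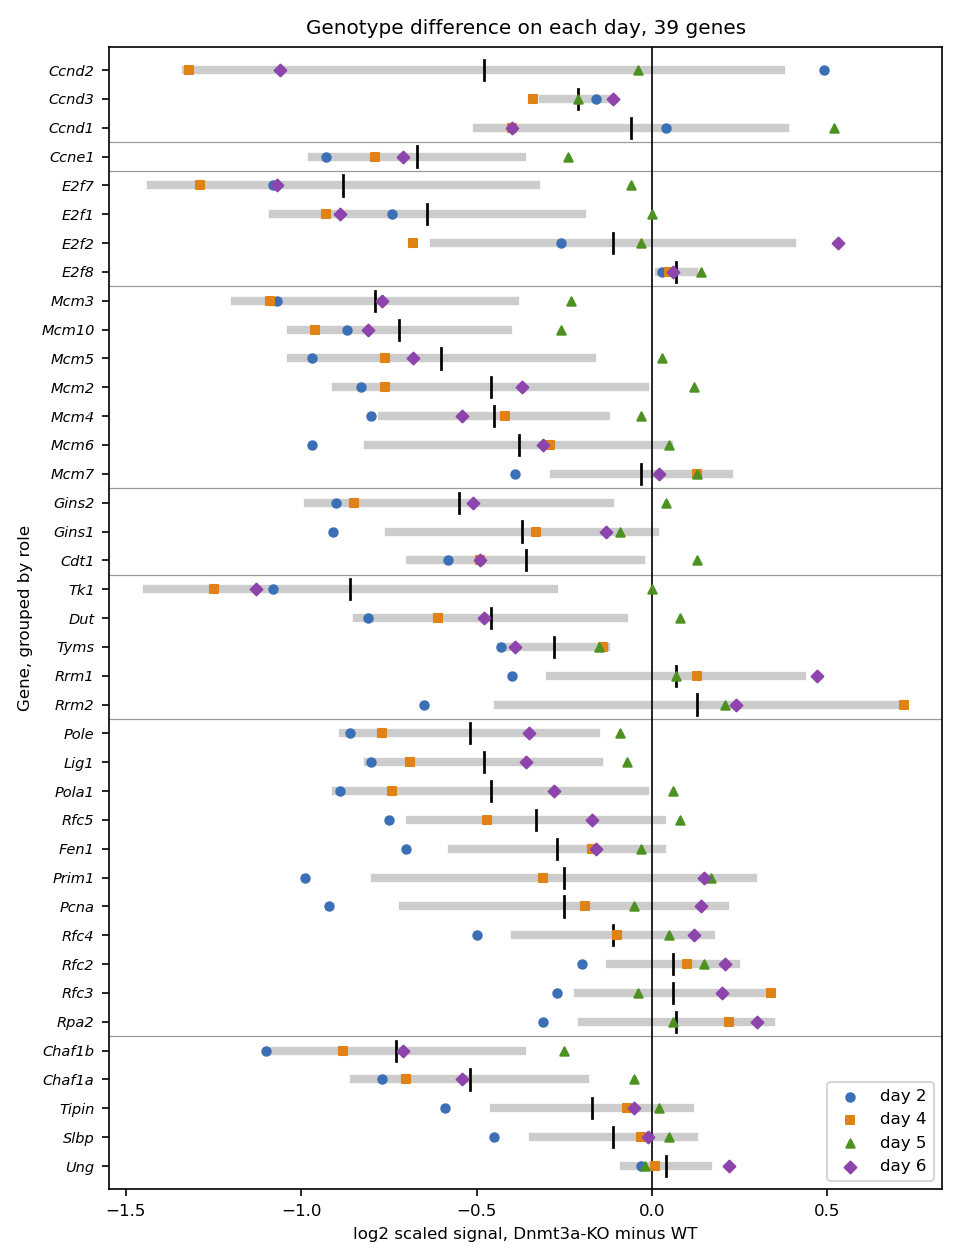
Genotype difference of the 39 tested genes (log2 scaled signal, Dnmt3a-KO minus WT; horizontal axis) on each day, with genes grouped by role down the page. Symbols are single days, black ticks the mean and grey bars 1 SD over 4 days; day 5 lies near 0 for nearly every gene, while days 2, 4 and 6 lie to the left for E2f7, Tk1, Mcm3 and Ccne1.

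The difference was not the same on every day. On day 2, 36 of 39 genes were lower in Dnmt3a-KO cells (92.3%; background 46.7%) with a median of -0.75, 24 were at least 1.5-fold lower (61.5%; background 4.23%), and 4 at least 2-fold lower (10.3%; background 1.14%). Those 4 were Chaf1b, E2f7, Tk1 and Mcm3, at -1.10, -1.08, -1.08 and -1.07. On day 4, 31 genes were lower (79.5%; background 52.6%) with a median of -0.42, 17 were at least 1.5-fold lower (43.6%; background 7.84%), and 4 at least 2-fold lower (10.3%; background 3.07%), namely Ccnd2, E2f7, Tk1 and Mcm3. On day 5, 19 genes were lower (48.7%; background 59.2%) with a median of 0.0017, and 0 were lower by at least 1.5-fold (background 5.87%) or 2-fold (background 1.82%). On day 6, 27 genes were lower (69.2%; background 45.5%) with a median of -0.31, 9 were at least 1.5-fold lower (23.1%; background 5.75%), and 3 at least 2-fold lower (7.69%; background 1.88%), namely Tk1, E2f7 and Ccnd2. Over the 4 days together, 14 genes were lower on each day (35.9%; background 11.5%). None of the 39 genes was at least 2-fold higher on any day (background 1.89%, 1.46%, 0.916% and 1.3%). The medians over all genes were 0.0073, -0.017, -0.048 and 0.023 on the 4 days. Under normexp the medians of the 39 genes were -0.31, -0.43, 0.01 and -0.14 on days 2, 4, 5 and 6, and 4, 7, 0 and 15 genes were at least 2-fold lower. That correction also shifted all genes by brightness. The middle 9827 genes, with 27 of the 39, had medians of -0.47, -0.25, 0.00073 and -0.70. The brightest 4914, with 11 of the 39, had 0.67, 0.18, -0.04 and 1.13. The normexp counts have no share of all genes beside them. With 1 array per genotype and day, the values of a single day have no test.

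D-type cyclins receive growth signals and start G1, and their signals did not move as one. Ccnd1, the best known of them, had scaled signals of 34.4, 7.56, 15.7 and 9.85 in Dnmt3a-KO cells on days 2, 4, 5 and 6, against 33.4, 10, 11 and 13 in WT cells. Dnmt3a-KO cells were below WT on days 4 and 6 and above it on days 2 and 5, so that the mean difference was -0.06 ± 0.44 (SD over 4 days; adjusted p = 0.91). Ccnd2 had 9.46, 2.24, 9.06 and 3.34 in Dnmt3a-KO cells, against 6.75, 5.60, 9.32 and 6.95 in WT cells. Its 4 differences, 0.49, -1.32, -0.04 and -1.06, had the widest spread of any tested member (SD 0.85; mean -0.48; adjusted p = 0.58). Ccnd3, the D-type cyclin that myotubes are known to keep, had 63.3, 61.8, 70.6 and 62.9 in Dnmt3a-KO cells, against 70.8, 78.3, 81.8 and 67.7 in WT cells. It was lower on 4 of 4 days by a small amount (-0.21 ± 0.10; adjusted p = 0.36), and a second probe gave -0.17 ± 0.21. Under normexp background correction the mean differences of Ccnd1, Ccnd2 and Ccnd3 turned positive, at 0.50, 0.02 and 0.37.

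Ccne1, the cyclin that drives entry into S phase, was lower on each day in Dnmt3a-KO cells. Its probe lies on chromosome 7 at 38882937 to 38882960 (mm9, as for every probe position given here), and its signals were 3.51, 1.27, 2.34 and 1.3 in Dnmt3a-KO cells, against 6.70, 2.21, 2.76 and 2.12 in WT cells. The gap was narrowest on day 5, and the mean difference was -0.67 ± 0.30 (SD over 4 days; unadjusted p = 0.0033; adjusted p = 0.20). A second probe gave -0.60 ± 0.47, with differences of -1.02, -0.92, -0.43 and -0.01, so it showed nearly no gap on day 6.

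Among the E2F factors, E2f1 (an activator) and E2f7 (a repressor of the same targets) had less signal in Dnmt3a-KO on days 2, 4 and 6, while E2f8 was not lower on any day. The group's median was -0.38, and it lay 0.20 above that of all genes under normexp. E2f7 (chromosome 10, 110224331 to 110224390) had 0.285, 0.0835, 0.193 and 0.102 in Dnmt3a-KO cells, against 0.603, 0.204, 0.202 and 0.215 in WT cells. Its mean difference was the lowest of the 39 genes at -0.88 ± 0.55 (adjusted p = 0.28), from signals that were close on day 5 and apart by over 1 log2 unit on the other days. A second E2f7 probe did not show this: its differences were -0.13, -0.06, -0.65 and 0.22 and its mean was -0.15 ± 0.36. E2f1 (chromosome 2, 154385798 to 154385857) had 0.589, 0.252, 0.639 and 0.333 in Dnmt3a-KO cells, against 0.982, 0.481, 0.639 and 0.617 in WT cells. The 2 genotypes met on day 5, and the mean difference was -0.64 ± 0.44 (adjusted p = 0.30). E2f8, the close relative of E2f7 and also a repressor, had 3.99, 1.84, 1.66 and 1.64 in Dnmt3a-KO cells, against 3.91, 1.78, 1.51 and 1.57 in WT cells. It was the 1 gene of 39 that was higher on 4 of 4 days (2.56%; background 10.9%), by 0.07 ± 0.05 (adjusted p = 0.67). E2f2, another activator, differed by -0.26, -0.68, -0.03 and 0.53 and so changed side on day 6.

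The MCM genes encode the ring that unwinds DNA and its partner MCM10. Of these 7 genes 5 were lower at unadjusted p under 0.05 (background 6.71%), and their median difference was -0.46 over all 7. Mcm3 (chromosome 1, 20793136 to 20793195), whose promoter window is printed above, had 1.99, 0.487, 0.908 and 0.563 in Dnmt3a-KO cells, against 4.18, 1.04, 1.06 and 0.956 in WT cells. It was lower on 4 of 4 days, least so on day 5, with a mean of -0.79 ± 0.40 (adjusted p = 0.22) and -0.76 ± 0.48 by its second probe. Mcm10 (chromosome 2, 4911785 to 4911844) had 0.452, 0.106, 0.138 and 0.0979 in Dnmt3a-KO cells, against 0.823, 0.206, 0.165 and 0.171 in WT cells. This gene, also lower on 4 of 4 days, had the smallest p of the list (-0.72 ± 0.31; unadjusted p = 0.0026; adjusted p = 0.18). Mcm5 (chromosome 8, 77651350 to 77651410) had 1.11, 0.359, 0.556 and 0.342 in Dnmt3a-KO cells, against 2.17, 0.609, 0.546 and 0.548 in WT cells. Its signals matched on day 5, and the mean was -0.60 ± 0.43 (adjusted p = 0.32). Mcm2, Mcm4 and Mcm6 had means of -0.46, -0.45 and -0.38, and Mcm7 had -0.03. The ring is built from 1 copy of each of these 6 subunits, yet on day 4 their differences ran from -1.09 in Mcm3 to 0.13 in Mcm7, and on day 2 from -1.07 to -0.39. Under normexp the means of Mcm6 and Mcm7 changed sign.

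Of the genes that license origins and complete the helicase, Cdt1, Gins1 and Gins2 were lower, with means of -0.36, -0.37 and -0.55 (adjusted p = 0.38, 0.41 and 0.33). Cdt1 and Gins2 were lower on days 2, 4 and 6 and slightly higher on day 5, and Gins1 was lower on all 4 days with most of its gap on day 2 (-0.91, -0.33, -0.09 and -0.13). Cdc6 gave 0.0498, 0.00763, 0.0138 and 0.00763 in Dnmt3a-KO cells, against 0.126, 0.0229, 0.0188 and 0.0214 in WT cells. Only the day 2 values were well above background, and 0.00763 is the common floor, so the later values carry no order.

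The enzymes of nucleotide supply were split, with Tk1 and Dut lower on days 2, 4 and 6 and both subunits of ribonucleotide reductase lower on day 2 only. Tk1, the S-phase thymidine kinase (chromosome 11, 117676845 to 117676904), had 1.17, 0.163, 0.264 and 0.153 in Dnmt3a-KO cells, against 2.47, 0.387, 0.264 and 0.335 in WT cells. The signals were equal on day 5 and more than 2-fold apart on the other days, with a mean of -0.86 ± 0.58 (adjusted p = 0.30). Rrm2, the regulated subunit of ribonucleotide reductase, had 7.16, 16.3, 11.3 and 13.1 in Dnmt3a-KO cells, against 11.2, 9.90, 9.76 and 11.1 in WT cells. Dnmt3a-KO cells were lower on day 2 and higher on the 3 later days, and the mean of 0.13 ± 0.57 (adjusted p = 0.83) was the highest of the 39. Rrm1, the large subunit, had 6.61, 3.66, 3.87 and 5.98 in Dnmt3a-KO cells, against 8.70, 3.35, 3.70 and 4.30 in WT cells. It followed the same course with a mean of 0.07 ± 0.36 (adjusted p = 0.86). Dut, which removes dUTP, and Tyms, which makes thymidylate, had means of -0.46 and -0.28 (adjusted p = 0.35 and 0.32).

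**Figure D2:**
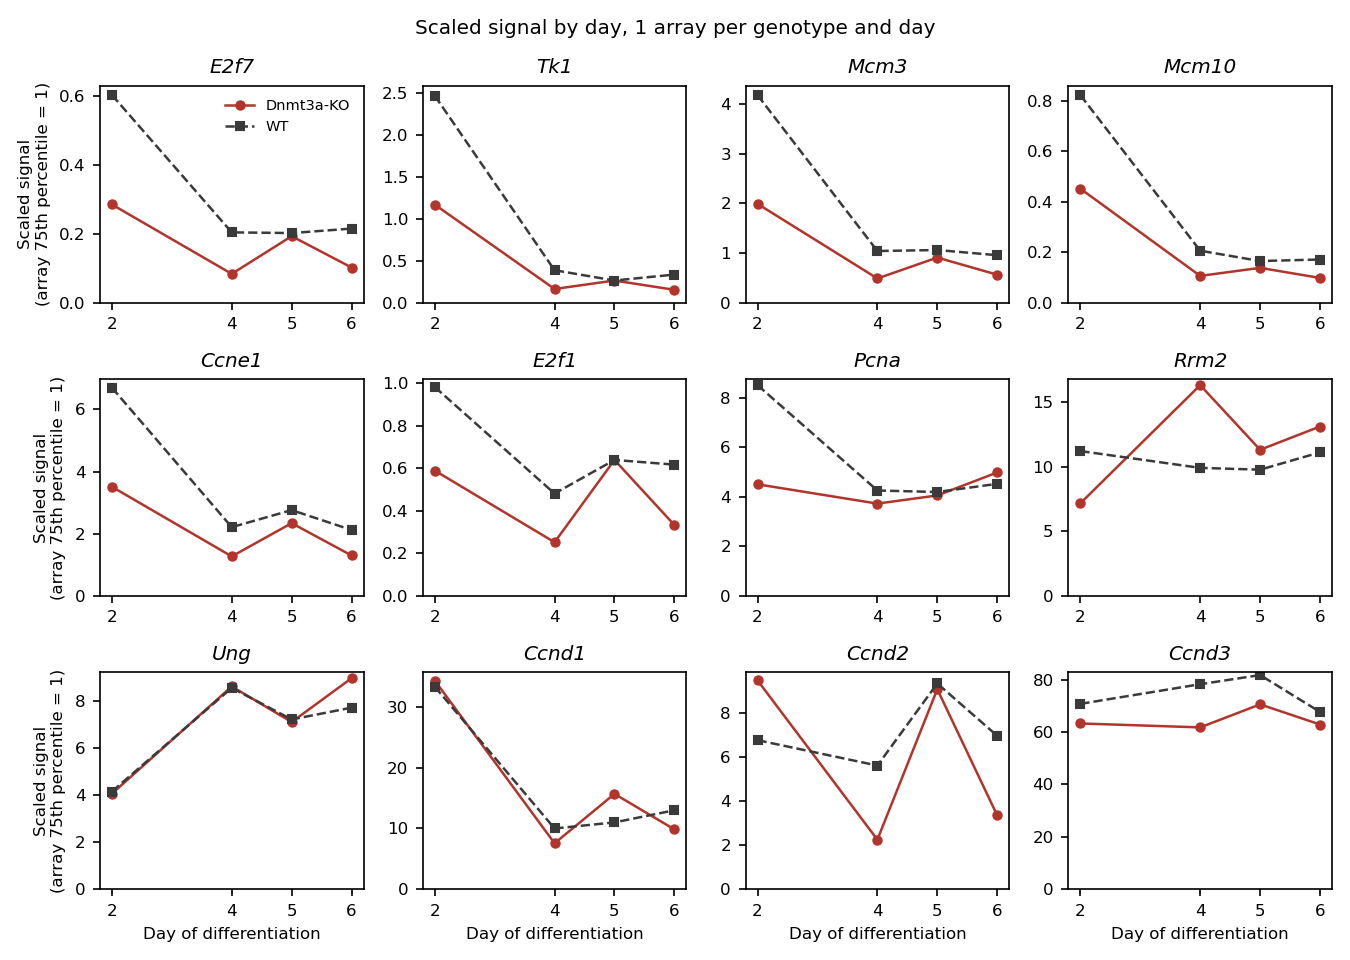
Scaled signal (vertical axis, array 75th percentile set to 1) by day of differentiation in Dnmt3a-KO cells (red, solid) and WT cells (dark, dashed) for 12 of the 41 genes, 1 array per point. In E2f7, Tk1, Mcm3, Mcm10, Ccne1 and E2f1 the Dnmt3a-KO line lies below WT on days 2, 4 and 6 and approaches or meets it on day 5, in Pcna the gap is on day 2, and the D-type cyclins and Ung take courses of their own.

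The polymerases and ligase were lower mainly on days 2 and 4, and the clamp, primase and most of the clamp loader on day 2. All 11 genes of this group were lower on day 2 (median -0.75; background 46.7%), 8 on day 4 (52.6%), 5 on day 5 (59.2%) and 5 on day 6 (45.5%). Pole, Lig1 and Pola1, 3 of the 11, were lower at unadjusted p under 0.05 (background 6.71%). Under normexp the group's median lay 0.21 above that of all genes. Pole and Pola1, catalytic subunits of DNA polymerases epsilon and alpha, had means of -0.52 and -0.46 (adjusted p = 0.32 and 0.38), and Lig1, which seals nicks, had -0.48 (adjusted p = 0.31). Pcna, the sliding clamp, differed by -0.92, -0.19, -0.05 and 0.14, and Prim1, a primase subunit, by -0.99, -0.31, 0.17 and 0.15. Rfc2, Rfc3, Rfc4 and Rfc5, subunits of the clamp loader, differed by -0.75 to -0.20 on day 2, by -0.47 in Rfc5 to 0.34 in Rfc3 on day 4 and by -0.17 to 0.21 on day 6. Rfc2 had 2.01, 1.77, 1.95 and 1.90 in Dnmt3a-KO cells, against 2.31, 1.65, 1.76 and 1.64 in WT cells. Rfc3 had 0.363, 0.247, 0.206 and 0.271 in Dnmt3a-KO cells, against 0.437, 0.195, 0.212 and 0.236 in WT cells. In both the sign on day 2 was opposite to that on days 4 and 6, and each mean was 0.06. Rpa2, a subunit of the single-strand binding protein, had 0.420, 0.721, 0.746 and 0.784 in Dnmt3a-KO cells, against 0.522, 0.618, 0.713 and 0.635 in WT cells. It too was lower on day 2 and higher afterwards, with a mean of 0.07 ± 0.27 (adjusted p = 0.83). Fen1, which trims flaps between new fragments, was lower on 4 of 4 days, with -0.70 on day 2 and at most 0.17 lower on the others.

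Chaf1a and Chaf1b, which encode subunits of the histone chaperone that packs new DNA, were lower on 4 of 4 days. Chaf1b (chromosome 16, 93906219 to 93906278) had 1.52, 0.341, 0.480 and 0.383 in Dnmt3a-KO cells, against 3.27, 0.627, 0.569 and 0.626 in WT cells. Its mean of -0.73 ± 0.36 (adjusted p = 0.21) was matched by -0.77 ± 0.53 at a second probe. Chaf1a had a mean of -0.52 ± 0.33 (adjusted p = 0.30). Slbp, which binds histone mRNA, and Tipin, which guards the fork, differed by -0.45 and -0.59 on day 2 and by no more than 0.07 in size on any later day. For Slbp a second probe gave -0.33, -0.14, -0.06 and -0.15 on the 4 days, so it was lower on each. Ung, which excises uracil from DNA, had 4.05, 8.6, 7.09 and 8.95 in Dnmt3a-KO cells, against 4.14, 8.54, 7.20 and 7.70 in WT cells. The genotypes ran together until day 6, and the mean was 0.04 ± 0.12 (adjusted p = 0.83).

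Across roles, 2 day patterns took in 19 of the 39 genes, described here with limits set after the values were seen and with no test, and the other 20 genes (51.3%) met neither. A first set of 13 genes was lower by 0.4 or more on each of days 2, 4 and 6, namely Ccne1, E2f1, E2f7, Mcm3, Mcm4, Mcm5, Mcm10, Cdt1, Gins2, Tk1, Dut, Chaf1a and Chaf1b. Those 13 of 39 genes (33.3%) compare with 1.72% of all genes, and their medians were -0.90, -0.85, -0.027 and -0.71 on the 4 days. By their second probes E2f7 (-0.13, -0.06 and 0.22 on days 2, 4 and 6) and Ccne1 (-0.01 on day 6) did not meet this limit, while Mcm3 and Chaf1b did. Another 6, namely Rrm2, Pcna, Rfc4, Fen1, Slbp and Tipin, were lower by 0.4 or more on day 2 and not lower by 0.2 or more on days 4 and 6. These 6 of 39 genes (15.4%) compare with 2.69% of all genes, and their medians were -0.62, -0.08, 0.034 and 0.05. Some of them were higher later, namely Rrm2 on days 4 and 6 (0.72 and 0.24) and Pcna and Rfc4 on day 6 (0.14 and 0.12). By its second probe Slbp had -0.33 on day 2 and so did not meet the limit. On day 5 the differences of the 13 genes spanned only -0.26 to 0.13.

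**Figure D3:**
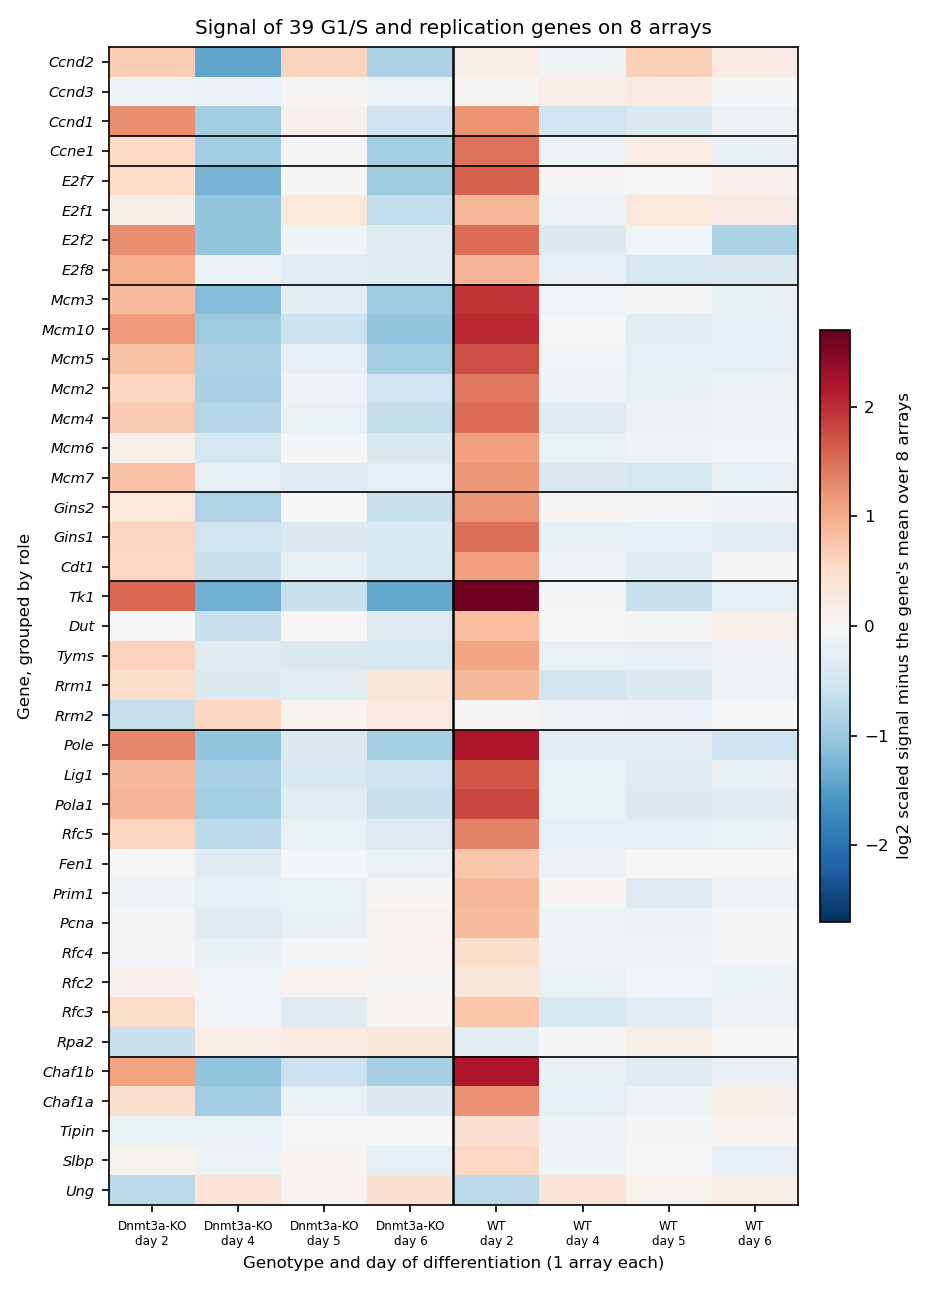
Log2 scaled signal of each of the 39 tested genes (rows, grouped by role) on the 8 arrays (columns, Dnmt3a-KO left of WT), minus the gene's own mean over the 8 arrays. Day 2 of WT is the reddest column, days 4 to 6 of WT look alike, and in Dnmt3a-KO the bluest cells lie on days 4 and 6, with paler cells on day 5.

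Within the genotypes, day 5 stood apart from days 4 and 6 in the Dnmt3a-KO arrays more than in the WT arrays. In Dnmt3a-KO cells, 30 of 39 genes (76.9%) had a higher signal on day 5 than the mean of days 4 and 6, by a median of 0.34, against 41.4% of all genes. In WT cells 14 of 39 genes (35.9%) did, with a median of -0.05, against 54.5% of all genes. The range over days 4 to 6 had a median of 0.49 log2 units per gene in Dnmt3a-KO cells and 0.20 in WT cells. E2f1, for example, was 1.14 higher on day 5 than on days 4 and 6 in Dnmt3a-KO cells and 0.23 higher in WT cells. The day 4 and day 5 arrays of both genotypes shared a slide. This view was chosen after the values were seen and has no test.

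Most of these genes were highest on day 2 in both genotypes. The signal on day 2 exceeded the mean of days 4 to 6 in 34 of 39 genes in Dnmt3a-KO cells (87.2%, against 46.0% of all genes; median 0.99) and in 35 of 39 in WT cells (89.7%, against 44.8%; median 1.27). In the fit of a linear day slope over all 8 arrays, 18 of 39 genes fell at adjusted p under 0.05 (46.2%; background 19.5%) and 2 rose (5.13%; background 25.9%). Tk1 fell most, by 0.73 ± 0.15 log2 units per day (SE; adjusted p = 0.014), followed by Pole, Mcm10 and Chaf1b at -0.60, -0.56 and -0.55. Of the 7 MCM genes 6 fell, and 0 of 3 D-type cyclins did. Rpa2 and Ung rose, by 0.16 ± 0.05 (adjusted p = 0.033) and 0.24 ± 0.07 (adjusted p = 0.025). Rrm2, which stayed between 7.16 and 16.3 on all arrays, had a slope of 0.09 (adjusted p = 0.35). The slopes rest on day 2: without it 0 genes fell and 0 rose, and with day 2 as a step of its own the median slope over days 4 to 6 was 0.04, with 0 calls among all genes by limma and, at unadjusted p under 0.05, 0 genes falling (background 5.04%) and 1, Rrm1, rising (background 3.31%). Without day 5, 0 genes passed, and without day 4, 23 fell. Under normexp background correction 0 genes fell, and with no filter on dim probes 8 did. No share of all genes stands beside these counts or the count without day 2. Day 2 also differed from the later days in slide, scanner, software and sex-linked transcripts, so these and the time in culture cannot be told apart.

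Whether the genotype difference itself changed linearly with day was tested with an interaction term. By limma, 0 of 39 genes passed the adjusted threshold (background 0%). At unadjusted p under 0.05, 5 genes had a positive term (12.8%; background 1.86%), namely Prim1, Pcna, Rrm1, Gins1 and Rfc4, and 0 had a negative one (background 2.31%). All 5 had their lowest difference on day 2. For Prim1 and Pcna the fitted term was 0.31 and 0.27 log2 units per day (limma unadjusted p = 0.0067 and 0.0072). The rise was not even: Prim1 differed by -0.99, -0.31, 0.17 and 0.15 on days 2, 4, 5 and 6, and Pcna by -0.92, -0.19, -0.05 and 0.14. As with the slopes, time cannot be told apart from the other ways in which day 2 differed.

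The other lists, 3 in number, were set beside these genes. Of 61 further G1/S and replication genes, 59 were tested, and their medians were -0.49, -0.12, 0.030 and -0.055 on days 2, 4, 5 and 6. Among the 59, 13 were lower (background 6.71%) and 0 higher (background 6.17%) at unadjusted p under 0.05. The lowest were Atad2, a chromatin factor and E2F partner (-1.22 ± 0.66; adjusted p = 0.23), Ticrr, which helps fire origins (-0.93 ± 0.80), and Exo1, an exonuclease (-0.90 ± 0.52). Atad2 and Ticrr were each well above background on only 2 of 4 Dnmt3a-KO arrays. The day 5 Dnmt3a-KO signal of Atad2 lay at the common floor, and its difference there was -1.87. E2f5, Cdk6 and Mcm9 had the highest means at 0.18, 0.15 and 0.12, and Cdk6 was well above background on only 2 of 4 WT arrays. Of 18 mitosis genes, 16 were tested, with medians of -0.93, -1.3, 0.079 and -1.0, low on days 2, 4 and 6 and near 0 on day 5. All 16 had a mean below 0 (background 53.0%), and 15 were lower at unadjusted p under 0.05 (background 6.71%), with 0 past the adjusted threshold. Cdk1, the mitotic kinase, was lowest (-1.09 ± 0.56; adjusted p = 0.21), followed by Kif11, a spindle motor (-0.98 ± 0.10; adjusted p = 0.064), and Ccnb1 (-0.97 ± 0.50; adjusted p = 0.21). Kif11 departed from the rest in being as low on day 5 (-0.93) as on days 2, 4 and 6 (-0.93, -1.13 and -0.93). It was dim, however, being well above background on only 2 of 4 Dnmt3a-KO arrays. Its Dnmt3a-KO signals on days 4, 5 and 6 were 0.0261, 0.0205 and 0.0149. The 7 inhibitors of cyclin-dependent kinases had medians of 0.033, -0.22, -0.16 and -0.063, with Cdkn1c lowest (-0.92 ± 0.70; adjusted p = 0.32) and Cdkn1a highest (0.13 ± 0.11; adjusted p = 0.52). No test of a difference between the lists was made.

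**Figure D4:**
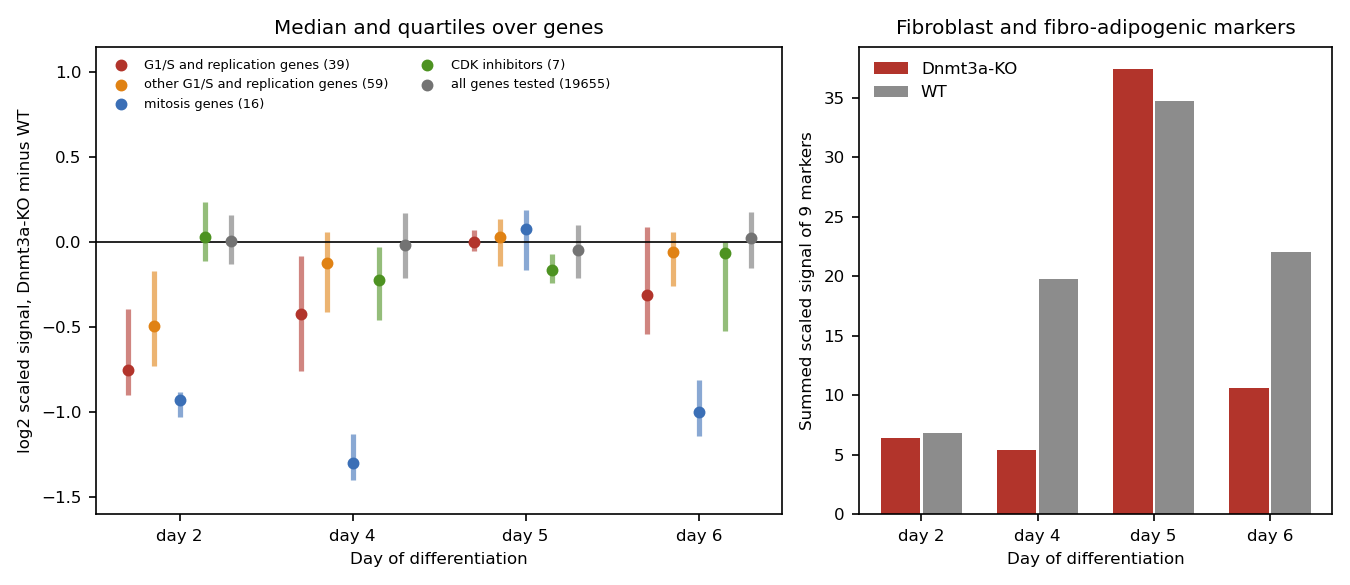
Left, median (dot) and quartiles (line) over genes of the log2 genotype difference (Dnmt3a-KO minus WT) on each day for the 39 G1/S and replication genes, 3 comparison lists and all 19655 genes. Right, scaled signal summed over 9 markers of fibroblasts and fibro-adipogenic cells in Dnmt3a-KO cells and WT cells, with 1 array per bar; the sum in Dnmt3a-KO cells was below WT on days 4 and 6 and close to it on days 2 and 5, while on day 2 4 of 7 tested markers were higher in Dnmt3a-KO.

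Markers of other cell types moved with part of this pattern. The 9 markers of fibroblasts and fibro-adipogenic cells, of which 5 were well above background on all 8 arrays and Lum and Dpt on none, summed to 5.38 to 37.4 on the Dnmt3a-KO arrays and 6.80 to 34.7 on the WT arrays. The log2 difference of that sum was -0.09, -1.88, 0.11 and -1.05 on days 2, 4, 5 and 6, next to medians of -0.75, -0.42, 0.0017 and -0.31 for the 39 genes. Single markers went apart within that sum. On day 2 Col3a1 made up most of it, with 4.99 of 6.39 in Dnmt3a-KO cells and 6.01 of 6.80 in WT cells, while 4 of the 7 tested markers were higher in Dnmt3a-KO, among them Col1a1 by 2.25, Dcn by 0.82 and Thy1 by 0.66. The median difference of the 7 markers was 0.66, -1.64, 0.21 and -1.26 on the 4 days. The 5 markers of smooth muscle and pericytes, 2 of them well above background on all 8 arrays, summed to 2.87 to 7.86 on the Dnmt3a-KO arrays and 3.93 to 6.96 on the WT arrays, with log2 differences of 0.18, -0.72, 0.06 and -0.45. The 4 tested markers among them had medians of 0.74, -0.53, -0.50 and -0.59, with 3 lower and 1 higher on each of days 4, 5 and 6. On day 4 Cnn1 differed by -3.78 and Rgs5 by 1.17, and on day 6 by -1.40 and 1.95. For Schwann cells the log2 difference of the marker sum was 0.38, -1.33, 0.23 and 0.13. For adipocytes, with 0 markers well above background on all 8 arrays, it was 0.03, -0.23, 0.54 and -0.42. Macrophage and leukocyte markers gave 0.08, -0.15, -0.08 and -0.10, and endothelial markers 0.23, -0.24, -0.28 and 0.06. The part of any of these cell types in the result was not tested. The sum of the 6 measured myogenic markers was 148 to 156 on the Dnmt3a-KO arrays and 145 to 163 on the WT arrays, and Myod1 and Myog differed by 0.03 and -0.02 on average. Pax7, the marker of undifferentiated satellite cells, had less signal in Dnmt3a-KO on each day (-0.41, -0.45, -1.42 and -0.68; adjusted p = 0.28).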

How the data were processed

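Spot intensity was extracted by the authors with Agilent Feature Extraction, 11.0.1.1 for day 2 and 9.5.3.1 for the other days per the file headers (9.5 per the submitters' processing notes). The deposited score of the value table was reproduced to within 0.6 on all spots by processed signal over 75th percentile, times 100.

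Processed intensity was scaled to the 75th percentile of the array's 43020 non-control spots, floored at 0.00763 and put on the log2 scale. Outlier spots were left out, spots of a probe averaged, and the brightest probe of a gene kept. A gene entered the tests when 4 or more of 8 arrays had it well above background, with limma 3.58.1 in R 4.3.3 (lmFit, eBayes, Benjamini-Hochberg over 19655 genes): the genotype effect with day as a block (3 residual degrees of freedom), the day slope with genotype as covariate (5) and their interaction (2). SDs are over 4 days. Per-sample values were given for the 8 lowest members, the 7 with a mean above 0, the D-type cyclins and the extreme slopes, and up to 3 genes per direction of other lists. The members and lists were chosen with earlier results of these data known. Myh3 and Acta1 had no probe usable on every array. Of 39429 probes 26055 matched a RefSeq gene, and the others kept the file's name. Alternatives covered scaling, background correction, filters, probes, variance model, blocks, fold and leaving out each day. The number of arrays limits the precision. Steps were tested on simulated data.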

Additional observations from a re-analysis of the deposited data

Results flagged for a closer look

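Among the 18 members with values on every array, the 4 arrays of each genotype and the 4 daily differences were examined for 1 value far from the other 3 (Dixon's test at its 95% critical value). Of 54 such groups 8 stood out. The chance rate of about 1 in 20 holds for 4 values of one kind and does not apply here. Each group held 4 different days, with day 2 on its own slide, scanner model and software version. Most of the 18 genes were also named for their mean differences. In WT cells the day 2 signal stood apart and above for E2f7 (0.603, against 0.202 to 0.215 on the other days), Mcm3 (4.18, against 0.956 to 1.06), Chaf1b (3.27, against 0.569 to 0.627), Mcm10 (0.823, against 0.165 to 0.206) and Mcm5 (2.17, against 0.546 to 0.609). In Dnmt3a-KO cells day 2 stood apart and above for E2f8 (3.99, against 1.64 to 1.84) and below for Rpa2 (0.42, against 0.721 to 0.784). For Tk1 the genotype difference of day 5 (-0.00027) stood apart from those of the other days (-1.25 to -1.08).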

How the results depend on the processing

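The counts of 0 members past the adjusted threshold for genotype and for the interaction held under every alternative run, and the median genotype difference stayed between -0.18 and -0.36 apart from leaving out a day (-0.46 to -0.22). The 19 members lower at unadjusted p became 9 under normexp, where 39.1% of all genes were lower, a larger share than 9 of 39. They became 0 without a day block (background 0.997%) and 7 to 20 when a day was left out (background 3.79% to 7.38%). The 18 falling slopes became 0 under normexp, 8 with no filter on dim probes, 0 with day 2 as a step and 0 to 23 when a day was left out. The 2 rising slopes became 0 under each of those first 3 settings and 0 to 2 when a day was left out. Except for the step, these slope counts have no share of all genes beside them. At 1.5-fold in place of 2-fold the members lower on days 2, 4 and 6 numbered 24, 17 and 9. Under normexp the day 2 median was -0.31, and 7 members were 2-fold lower on day 4 and 15 on day 6. On those 2 days the middle 9827 genes by brightness had medians of -0.25 and -0.70 under it. That correction gave median genotype differences of -1.47 over the dimmest 4914 genes and 0.48 over the brightest 4914, where the main scaling gave -0.02 for both. It turned 12 members' mean differences, among the 18 named with every array those of Rpa2 (-0.15), Rfc3 (-0.56), Ccnd1 (0.50), Ccnd2 (0.02) and Ccnd3 (0.37). Leaving out a day turned those of Rrm2 (-0.07 to 0.39), Rpa2 (-0.01 to 0.20), Rrm1 (-0.07 to 0.22), Rfc3 (-0.04 to 0.16), Ung (-0.01 to 0.07) and Ccnd1 (-0.25 to 0.06). With day 2 as a step the slopes of E2f7 (0.09), Mcm3 (0.02), Chaf1b (0.04), E2f1 (0.19), Rrm2 (-0.03), Rrm1 (0.27), Rfc2 (0.02), Rfc3 (0.10), Ung (-0.02), Ccnd1 (0.19), Ccnd2 (0.22) and Ccnd3 (-0.05) turned. When a day was left out they ran from -0.42 to 0.09, -0.59 to 0.02, -0.76 to 0.04, -0.19 to 0.19, -0.03 to 0.11, -0.37 to 0.27, -0.09 to 0.02, -0.33 to 0.10, -0.02 to 0.31, -0.53 to 0.19, -0.18 to 0.22 and -0.05 to 0.06 in the same order. The slope of Ccnd3 was -0.06 after quantile normalization and -0.02 as a mean of its probes. The causes were not tested. The labels carry no replicate numbers, and the main genotype test already pairs the arrays by day.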
